A study of Homo sapiens with 15 samples.

Results

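The peaks in 3 large clusters of olfactory receptor genes were examined, with the clusters defined by position on hg19: chr11:4300000-6300000 on the short arm of chromosome 11, chr11:55000000-56600000 on its long arm, and chr1:247600000-248900000 near the end of the long arm of chromosome 1. A peak belonged to a cluster when its centre lay inside it. Of 647617 peaks in the 4 peak lists analysed here, 887 met that rule, in 4.9 Mb of sequence (2 Mb, 1.6 Mb and 1.3 Mb), or 0.170% of the usable genome. They comprised 302 peaks of H3K4ox replicate 1, 312 of H3K4ox replicate 2, 68 of H2A.Z and 205 of RUVBL2. The 2 Mb on each side of each cluster, with 2039 peaks, served as flanks. On the long arm of chromosome 11 the left flank was only 0.285 Mb, because a peak-free stretch of over 1 Mb lies next to it, and on chromosome 1 the right flank was only 0.338 Mb, because the chromosome ends there. The flanks used therefore held 8.62 Mb. The right flanks of both chromosome 11 clusters are known to hold smaller groups of olfactory receptor genes, so they are not free of the family. Which genes lie at the peaks inside the clusters was not determined, so a peak there need not be at an olfactory receptor gene.

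All libraries came from MDA-MB-231, an established human triple-negative breast cancer cell line, and the labels give no knockdown for the cells behind these lists. Chromatin immunoprecipitation with sequencing was done with a laboratory-made antibody to H3K4ox (2 libraries) and with commercial antibodies to H2A.Z and to RUVBL2 (1 library each). An input, RNA-seq and ATAC-seq samples with knockdown of LOXL2 or RUVBL2 also belong to the series and were not analysed here. Expression of the olfactory receptor genes in this line was thus not examined here, and the name of the clusters rests on position alone.

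Olfactory receptors are G protein-coupled receptors of the nose, and each mature olfactory neuron expresses one allele of one receptor gene. Their small genes lie in long tandem arrays, many members are pseudogenes, and outside the olfactory epithelium the arrays are generally silent and packed in heterochromatin. In the RefSeq annotation of GRCh38.p14, used for names only, 376 of 872 human olfactory receptor genes and pseudogenes (43.1%) lie on chromosome 11, of which 171 encode a protein, and 96 (11.01%) lie on chromosome 1, of which 61 do. H3K4ox is histone H3 in which lysine 4 has been oxidised by LOXL2, a lysyl oxidase-like enzyme, and it is associated with compact chromatin. H2A.Z is a variant of histone H2A often found at promoters and enhancers. RUVBL2 is an AAA+ ATPase of the INO80, SRCAP and TIP60 complexes, which remodel nucleosomes and exchange H2A.Z.

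The clusters held fewer H3K4ox peaks than their flanks, while the densities of the other lists were closer to or above those of the flanks. The density of H3K4ox peaks was 61.6 per Mb in replicate 1 and 63.7 per Mb in replicate 2, against 91.7 and 87.0 per Mb in the flanks and 87.8 and 85.9 per Mb over the genome. The ratio of clusters to flanks was 0.672 in replicate 1 (95% interval 0.586 to 0.768) and 0.732 in replicate 2 (0.639 to 0.836), a mean of 0.702 ± 0.043 (SD, n = 2). Both replicates were therefore lower than their flanks by more than counting error, and the SD between them was small beside the difference. The ratio of the clusters to the rest of the genome was 0.721 ± 0.028 (SD, n = 2). That is a ratio of mean densities. Among genome windows of a cluster's length, 34.8% to 52.8% held fewer H3K4ox peaks than the cluster, so the clusters lay in the middle of the range of windows. When the peak-free sequence was counted as part of the flanks, the log2 ratio of -0.51 became -0.25 and the interval of 1 replicate included 0. Intervals for ratios of peak numbers are exact conditional binomial intervals, cover counting error only, treat peaks as independent and are not adjusted for the number of comparisons. With 4 libraries in all, the smallest p an exact paired test over libraries could give is 0.125, so no such test was made.

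H2A.Z peaks numbered 13.9 per Mb in the clusters, 9.74 per Mb in the flanks and 13.4 per Mb over the genome. The ratio to the flanks was 1.42 (1.02 to 1.98), and that to the rest of the genome was 1.03 (0.803 to 1.31). The cluster density was thus close to that of the genome, and the flanks were sparser than both. The excess over the flanks also rested on single places. On the log2 scale the ratio of 0.51 was 0.36 without the short-arm cluster, 0.23 without the chromosome 1 cluster and 0.041 with flanks of 4 Mb, and none of these intervals excluded 0. RUVBL2 peaks numbered 41.8 per Mb in the clusters, 48.0 per Mb in the flanks and 38.1 per Mb over the genome. The RUVBL2 ratio of 0.871 (0.733 to 1.03) was not separated from 1, and neither was the ratio of 1.10 (0.953 to 1.26) to the rest of the genome. With flanks of 1 Mb or 4 Mb its log2 value of -0.20 became -0.48 or -0.30, and these intervals excluded 0.

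**Figure D1:**
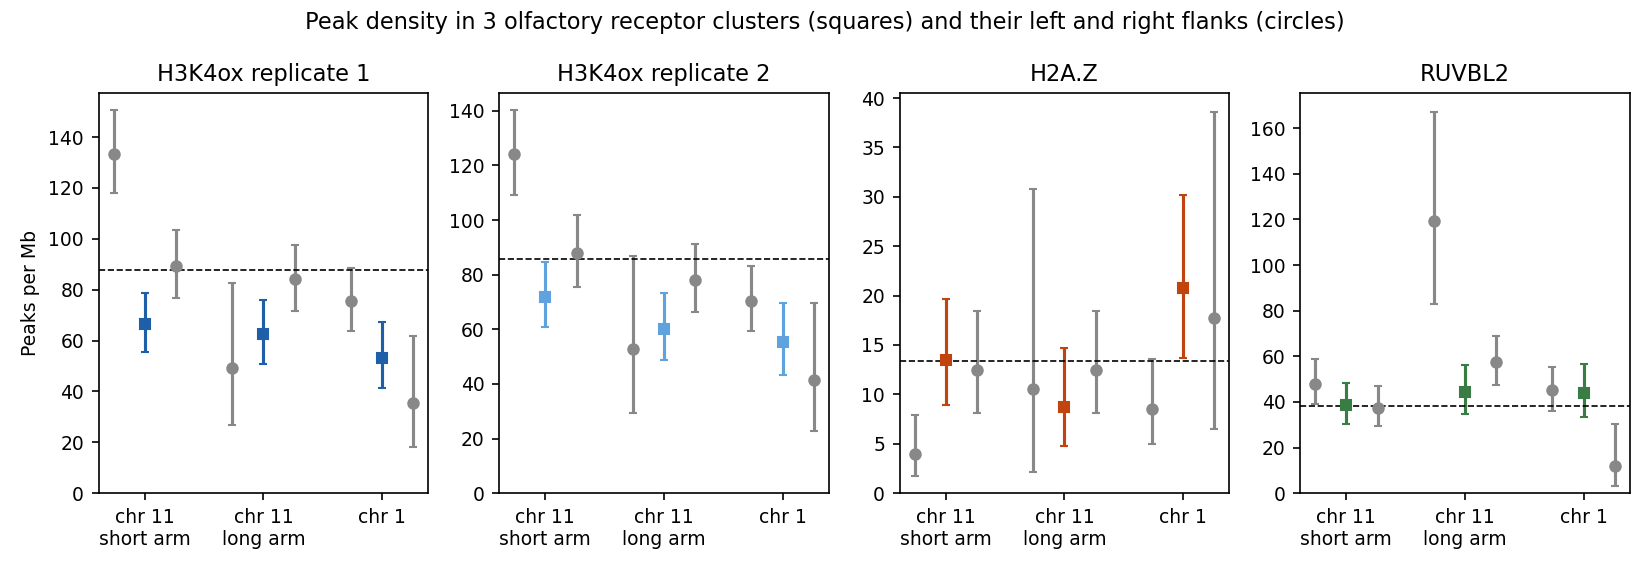
Peaks per usable Mb (vertical axis) in each cluster (squares) and in its left and right flanks (circles), 1 panel per library, with exact Poisson 95% intervals and the genome mean as a dashed line. Relative to both flanks together, both H3K4ox replicates lie lowest at the short-arm cluster, with 66.5 and 72.0 peaks per Mb. Its left flank held 133.5 and 124.0 per Mb and its right flank 89.5 and 88.0. In density alone this cluster is the highest of the clusters in both replicates.

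Values were also taken for each cluster, and differences among the 3 were not tested. For H3K4ox, the short-arm cluster held 133 and 144 peaks in the 2 replicates, with a ratio to its flanks of 0.638 ± 0.059 (SD, n = 2), and the interval excluded 1 in each replicate. Against its left flank alone the ratio was 0.539 ± 0.058, and against its right flank alone 0.781 ± 0.053 (SD, n = 2 each). The left-flank interval excluded 1 in both replicates, and the right-flank interval in replicate 1 only. The long-arm cluster, with 100 and 96 peaks, gave 0.793 ± 0.012, and the chromosome 1 cluster, with 69 and 72 peaks, gave 0.798 ± 0.052 (SD, n = 2 each). At these 2 clusters no replicate's interval against both flanks together excluded 1. The short flank on one side had fewer H3K4ox peaks per Mb than the cluster did. The ratio to it was 1.20 ± 0.093 on the long arm and 1.42 ± 0.11 on chromosome 1 (SD, n = 2 each). None of those intervals excluded 1. Against the 2 Mb flank on the other side it was 0.757 ± 0.018 and 0.744 ± 0.058 in the same order (SD, n = 2 each). That interval excluded 1 in both replicates on the long arm and in replicate 1 only on chromosome 1.

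For H2A.Z, 27 peaks fell in the short-arm cluster, 14 in the long-arm cluster and 27 in the smaller chromosome 1 cluster, which at 20.8 per Mb had the highest density of the 3. The ratio to the flanks was 2.11 (1.17 to 3.85) on chromosome 1, 1.64 (0.946 to 2.81) on the short arm and 0.714 (0.347 to 1.40) on the long arm. Only the chromosome 1 interval excluded 1. On the short arm the 2 flanks differed from each other, with 8 H2A.Z peaks on the left and 25 on the right in equal lengths, and the ratio was 3.38 (1.49 to 8.60) against the left flank and 1.08 (0.603 to 1.94) against the right one.

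For RUVBL2, 77 peaks fell in the short-arm cluster, 71 in the long-arm cluster and 57 in the chromosome 1 cluster, or 38.5, 44.4 and 43.8 per Mb. These densities lay close together, and it was the flanks that varied. The long-arm ratio was 0.680 (0.505 to 0.909), but its short left flank held 34 peaks in 0.285 Mb, or 119.5 per Mb. Against the right flank alone it was 0.772 (0.566 to 1.05). The other 2 ratios were 0.901 (0.679 to 1.19) on the short arm and 1.09 (0.771 to 1.53) on chromosome 1.

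Windows of the same length tiled over the usable genome were counted for comparison. For H3K4ox, between 34.8% and 52.8% of windows held fewer peaks than the cluster of that length. For RUVBL2 the share was 64.8% on the short arm, 73.2% on the long arm and 72.6% on chromosome 1. For H2A.Z it was 60.1%, 39.2% and 80.4% in the same order. For H3K4ox the median window of the short-arm length held 139 and 137 peaks in replicates 1 and 2, against 133 and 144 in the cluster. For the long arm these were 110 and 108 against 100 and 96, and for chromosome 1 they were 88 and 87 against 69 and 72. These percentiles and medians describe where each cluster stands and carry no test.

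Because the lists share the sequence they are measured on, the numbers of one kind of peak per 100 of another were compared, which removes the length. The clusters held 22.5 H2A.Z peaks per 100 H3K4ox peaks of replicate 1, against 10.6 in the flanks and 15.3 over the genome, a ratio of 2.12 (1.47 to 3.04). With replicate 2 the ratio was 1.95 (1.35 to 2.79). By cluster it was above 2 on the short arm and on chromosome 1 with either replicate, and 0.910 (0.422 to 1.88) and 0.891 (0.412 to 1.85) on the long arm. RUVBL2 peaks numbered 67.9 per 100 H3K4ox peaks of replicate 1, against 52.3 in the flanks and 43.4 over the genome, a ratio of 1.30 (1.04 to 1.61), but with replicate 2 the ratio of 1.19 (0.956 to 1.48) was not separated from 1. H2A.Z peaks numbered 33.2 per 100 RUVBL2 peaks, against 20.3 in the flanks and 35.2 over the genome, a ratio to the flanks of 1.63 (1.12 to 2.38). By cluster the last ratio was 1.82 (0.976 to 3.35) on the short arm, 1.05 (0.479 to 2.21) on the long arm and 1.94 (0.964 to 3.89) on chromosome 1, so none was separated from 1. Over the 3 clusters together H2A.Z peaks were thus more frequent, relative to both other lists, than in the flanks. Relative to RUVBL2, however, the clusters were near the genome value, and it was the flanks that lay below it. Only the H3K4ox lists name an input in their header lines, so differences between antibodies and between ways of calling cannot be told apart.

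Narrow H3K4ox peaks were fewer in all 3 clusters than in the flanks, and on the short arm those of intermediate width were fewer too. Peaks of under 1 kb numbered 32.4 and 34.5 per Mb in the clusters in replicates 1 and 2, and 59.6 and 56.7 per Mb in the flanks, a ratio of 0.576 ± 0.045 (SD, n = 2). This held in each cluster separately, with ratios of 0.606 ± 0.065 on the short arm, 0.618 ± 0.039 on the long arm and 0.526 ± 0.097 on chromosome 1 (SD, n = 2 each), and the interval excluded 1 in each replicate at each cluster. Peaks of 1 to 3 kb gave a ratio of 0.851 ± 0.071 (SD, n = 2), and neither replicate's interval excluded 1. On the short arm they were fewer than in the flanks, at 0.612 ± 0.098, with intervals of 0.369 to 0.782 and 0.480 to 0.951 in the 2 replicates, whereas the ratio was 1.01 ± 0.12 on the long arm and 1.29 ± 0.016 on chromosome 1 (SD, n = 2 each).

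RUVBL2 also had fewer narrow peaks in the clusters than in the flanks. It had 97 peaks of under 1 kb in the clusters, or 19.8 per Mb, against 31.3 per Mb in the flanks, a ratio of 0.632 (0.496 to 0.800). By cluster the ratio was 0.731 (0.490 to 1.07) on the short arm, 0.522 (0.342 to 0.781) on the long arm and 0.616 (0.375 to 0.982) on chromosome 1, so only the short-arm value was not separated from 1. Its peaks of 1 to 3 kb gave 1.29 (0.976 to 1.69) over the 3 clusters and 2.90 (1.56 to 5.54) on chromosome 1, where 29 such peaks fell in 1.3 Mb. H2A.Z differed from both, with 56 narrow peaks in the clusters, or 11.4 per Mb, against 7.42 per Mb in the flanks, a ratio of 1.54 (1.06 to 2.24). That H2A.Z excess was largest on chromosome 1, at 3.18 (1.55 to 6.84), and without that cluster the log2 ratio fell from 0.62 to 0.18 with an interval that included 0. With flanks of 1 Mb or 4 Mb it was 0.64 or 0.20, again with 0 in the interval.

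**Figure D2:**
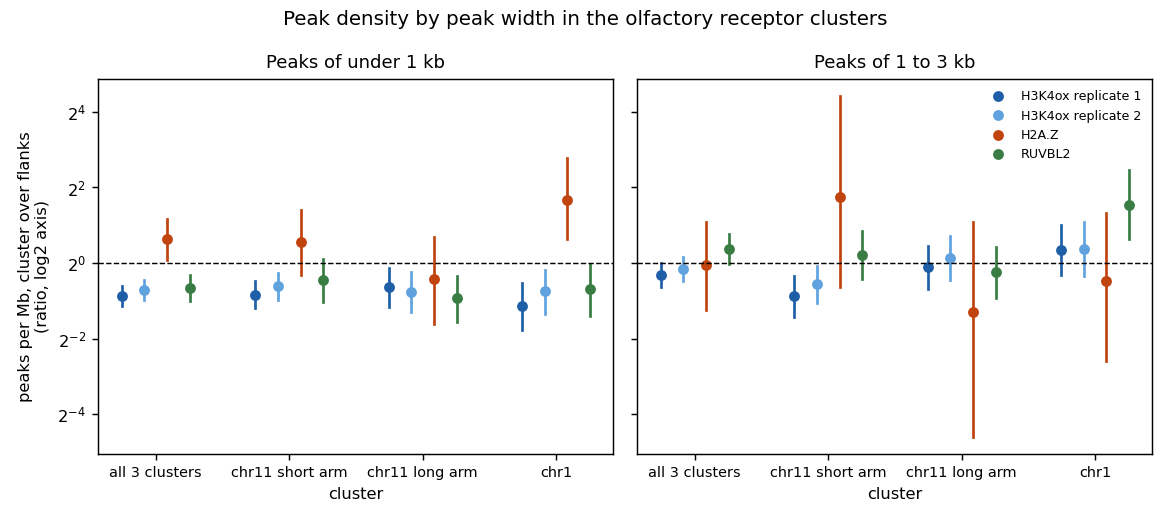
Ratio of peaks per Mb in the clusters to that in their flanks (log2 axis) for narrow peaks (left) and for peaks of 1 to 3 kb (right), with exact conditional 95% intervals, for each library and each cluster. Among narrow peaks both H3K4ox replicates lie below 1 at every cluster, and H2A.Z lies above 1 at 2 of the 3.

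At the other end of the range, wide H3K4ox peaks made up a larger share of the peaks in the clusters. Of 302 peaks of replicate 1, 26 (8.61%) were 3 kb or wider, against 20 of 791 (2.53%) in the flanks and 2.76% over the genome, a difference of 6.08 percentage points (3.09 to 9.89). Of 312 peaks of replicate 2, 18 (5.77%) were that wide, against 17 of 750 (2.27%) in the flanks and 2.28% over the genome, a difference of 3.50 points (1.02 to 6.78). Intervals for differences between shares are Newcombe intervals. Per Mb, the clusters held 4.49 ± 1.15 wide H3K4ox peaks and the flanks 2.15 ± 0.25 (SD, n = 2), a ratio of 2.29 (1.23 to 4.32) in replicate 1 and of 1.86 (0.906 to 3.85) in replicate 2. Over the 3 clusters together the excess in share was thus seen in both replicates, and that per Mb was separated from 1 in replicate 1 only. By cluster, the difference in share was separated from 0 in replicate 1 on the short arm and on chromosome 1, where the flanks held 1 wide peak. On the long arm it was not, and in replicate 2 it was not in any single cluster. RUVBL2 had 13 of 205 peaks (6.34%) of that width, against 3.38% in the flanks and 3.06% over the genome, a difference of 2.96 points (-0.45 to 7.38). H2A.Z had 1 of 68, against 0 of 84 in the flanks and 0.557% over the genome.

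Scores moved with widths. A peak's score is the authors' own value from the peak caller, whose unit the sources do not give, and was used only to rank peaks within a list. The median score of H3K4ox peaks was 101.0 in replicate 1 and 98.4 in replicate 2, against 83.4 and 80.4 in the flanks. In the clusters 58.3% and 59.9% of these peaks lay above the median of their whole list, against 50.1% and 48.9% in the flanks, a difference of 8.21 points (1.60 to 14.7) and of 11 points (4.42 to 17.4). By construction the share over the genome is 50%. Of RUVBL2 peaks, 123 of 205 (60%) lay above the median of the list, against 47.6% in the flanks, a difference of 12.4 points (4.06 to 20.4). H2A.Z went the other way, with 39.7% against 47.6%, but the difference of -7.91 points (-23.0 to 7.84) was within counting error.

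By cluster, on the short arm 51.1% and 50.7% of H3K4ox peaks lay above the list median, close to the 53.1% and 51.7% of its flanks. On the long arm the shares were 65.0% and 68.8% against 48.9% and 50.9%, and on chromosome 1 they were 62.3% and 66.7% against 42.9% and 39.4%. Both of these differences exceeded counting error in each replicate. RUVBL2 on chromosome 1 had 64.9% of its peaks above the list median against 37.2% in the flanks, a difference of 27.7 points (11.2 to 42.0), while H2A.Z there had 40.7% against 69.6%, a difference of -28.8 points (-50.8 to -1.24). The shares in the other 2 clusters were close to these, at 61.0% and 54.9% for RUVBL2 and 40.7% and 35.7% for H2A.Z on the short and the long arm. It was the flanks that differed, with 54.4% and 46.3% for RUVBL2 and 33.3% and 46.4% for H2A.Z, and neither difference was separated from 0 in these 2 clusters. Without the chromosome 1 cluster and its flanks the difference over the other 2 was 5.83 points for H3K4ox and 7.48 points for RUVBL2, and neither was separated from 0. Against the right flanks alone the differences were 7.63 and 9.48 points; the first was separated from 0 in 1 replicate only and the second was not.

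Taking the wide peaks one by one, 14 sites were 3 kb or wider in both H3K4ox replicates, 5 in each chromosome 11 cluster and 4 on chromosome 1. Of these, 13 also held a RUVBL2 peak and 5 an H2A.Z peak. Over the genome 3392 sites were that wide in both replicates, and 96.4% of them held RUVBL2 and 31.5% H2A.Z, so the 14 sites were near the genome in both respects. The highest score in replicate 1 was at chr11:55516023-55521110, with 1001.18 in replicate 1 and 814.74 in replicate 2, a RUVBL2 peak of score 253.23 and an H2A.Z peak of 61.02. At chr11:4421866-4426634 the scores were 789.62 and 906.85, with RUVBL2 at 333.16 and no H2A.Z peak. At chr11:55228141-55233061 they were 989.18 and 713.73, with RUVBL2 at 389.64 and again no H2A.Z. On chromosome 1, chr1:247852112-247856766 had 820.53 and 762.97 with RUVBL2 at 515.49. Apart from 1, the sites were 3574 to 5227 bp long.

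The exception was chr11:55020365-55027532, a site of 7168 bp near the left edge of the long-arm cluster. Its H3K4ox scores were 131.6 and 77.66, it met no RUVBL2 peak, and it overlapped an H2A.Z peak of 10800 bp at chr11:55016708-55027507 with a score of 341.92. That peak was the widest in any list in the clusters. The next 2 H2A.Z peaks by score in this cluster, at chr11:55007715-55010477 and chr11:55012959-55015733, lay beside it and met neither H3K4ox nor RUVBL2. These 3 of the 14 H2A.Z peaks of the cluster thus stood side by side at its left edge.

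**Figure D3:**
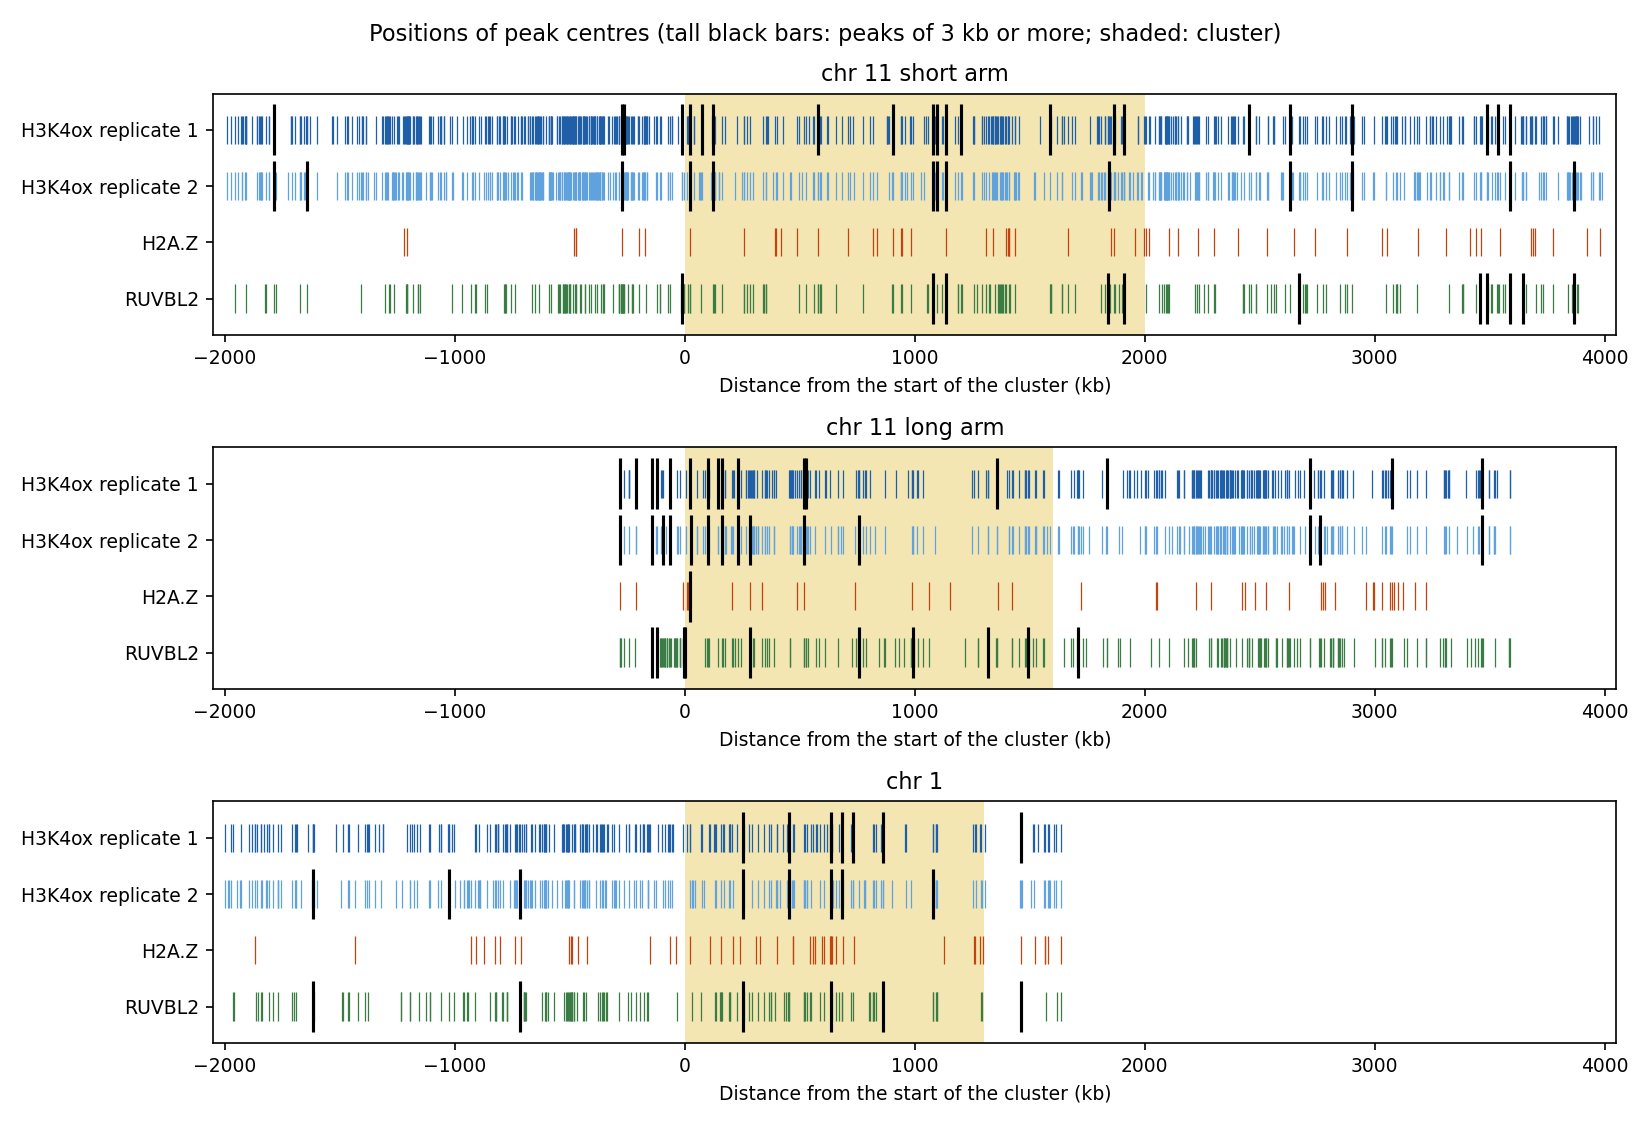
Centres of all peaks along each cluster and its flanks (horizontal axis, distance from the cluster's start in kb; cluster shaded), 1 row per library, with peaks of 3 kb or more as tall black bars. Wide H3K4ox and RUVBL2 peaks are spread along the 3 clusters and often stand at the same place in both rows.

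Where H3K4ox and RUVBL2 met was examined next. Overlap was counted from 1 bp, and an H3K4ox shared region was a merged stretch holding a peak of each replicate. In the clusters, 124 of 206 shared regions (60.2%) met a RUVBL2 peak, against 200 of 485 (41.2%) in the flanks and 38.5% over the genome, a difference of 19.0 points (10.8 to 26.7). By cluster the shares were 55.2% against 36.6% on the short arm, 61.6% against 53.6% on the long arm and 67.4% against 41.0% on chromosome 1, and only the long-arm difference was within counting error. In the other direction, 146 of 205 RUVBL2 peaks (71.2%) met a shared region, against 225 of 414 (54.3%) in the flanks and 64.4% over the genome, a difference of 16.9 points (8.79 to 24.4). The RUVBL2 peaks of the flanks were below the genome here, and those of the clusters above it. When each peak was reduced to 200 bp at its centre, the difference for RUVBL2 peaks was 5.09 points (-1.92 to 12.5) and no longer separated from 0. That rule was not run for the share of shared regions meeting RUVBL2.

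RUVBL2 peaks that met neither H2A.Z nor any H3K4ox peak made up a smaller share than in the flanks. They were 33 of 205 (16.1%) against 25.4%, a difference of -9.26 points (-15.5 to -2.37). The share over the genome was 16.9%, so the clusters were near the genome and the flanks above it. By cluster only the long-arm difference, 19.7% against 36.2%, exceeded counting error. The shares were 11.7% and 12.3% on the short arm and 17.5% and 31.9% on chromosome 1.

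Since wide peaks meet other peaks more readily, the overlap was also taken by width. Of H3K4ox peaks of 1 to 3 kb, 89 of 117 (76.1%) met RUVBL2 in replicate 1 against 61.9% in the flanks and 54.7% over the genome, a difference of 14.2 points (3.97 to 23.3). In replicate 2 these were 101 of 125 (80.8%) against 60.2% and 58.4%, a difference of 20.6 points (10.8 to 29.2). Without the short-arm cluster the mean difference of 17.4 points became 13.6 points, and without the long-arm cluster 18.3 points. In neither case did both replicates' intervals exclude 0. For peaks of under 1 kb, 32 of 159 (20.1%) met RUVBL2 in replicate 1 and 32 of 169 (18.9%) in replicate 2, against 15.8% and 16.2% in the flanks and 16.5% and 17.3% over the genome, differences of 4.37 points (-2.09 to 11.9) and 2.78 points (-3.49 to 10.0). Of wide H3K4ox peaks, 25 of 26 and 17 of 18 met RUVBL2, where over the genome 96.4% and 96.2% did, close to the shares in the clusters.

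Seen from RUVBL2 the picture was alike. Of its peaks of 1 to 3 kb in the clusters, 92 of 95 (96.8%) met an H3K4ox shared region, against 77.7% in the flanks and 87.2% over the genome, a difference of 19.1 points (10.6 to 27.3). Of its peaks under 1 kb, 41 of 97 (42.3%) did, against 41.1% in the flanks and 50.5% over the genome, a difference of 1.16 points (-9.93 to 12.6). All 13 of its wide peaks did, against 95.1% over the genome. The larger overlap in the clusters was thus called among peaks of intermediate width, and the difference between width classes was not tested.

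**Figure D4:**
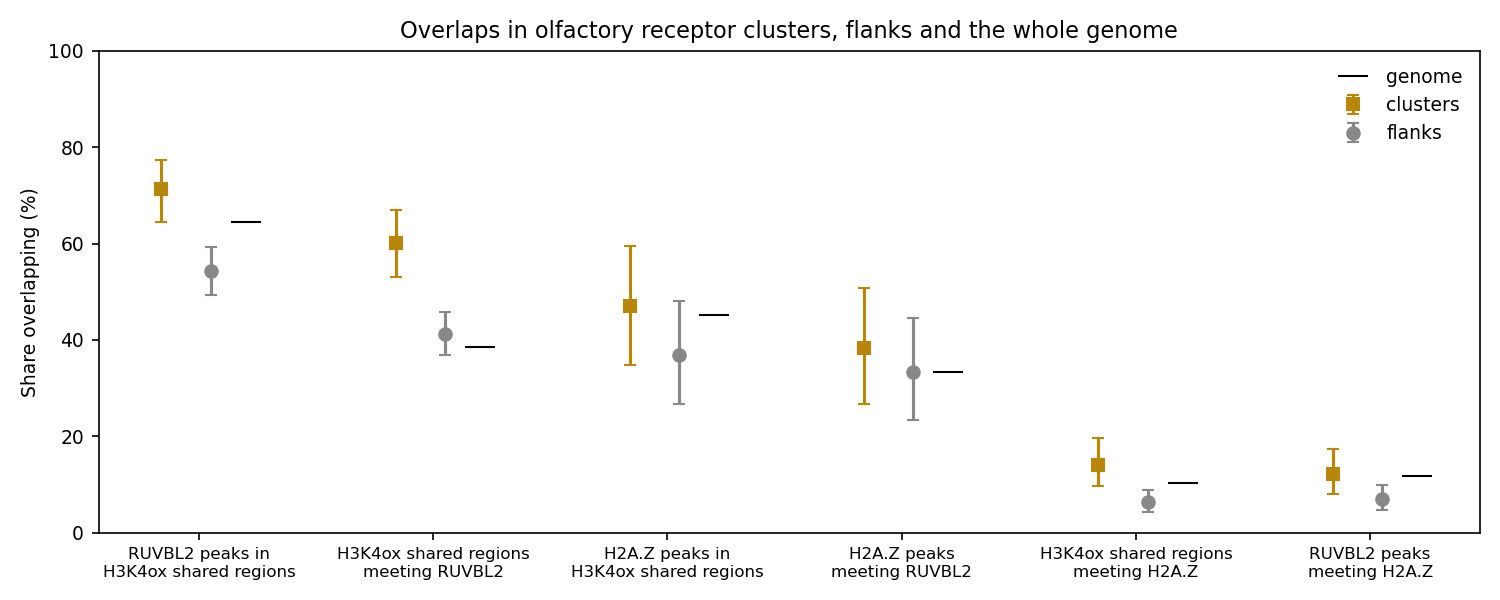
Share of peaks or shared regions (percent, vertical axis) that meet the named partner in the clusters and in the flanks, with Clopper-Pearson 95% intervals, and the genome share as a dash. The clusters lie above their flanks where H3K4ox and RUVBL2 meet, by 19.0 and 16.9 points, and the intervals of the H2A.Z peaks overlap widely.

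Scores were higher where both met. RUVBL2 peaks in H3K4ox shared regions had a median score of 138.2 and a median width of 1328 bp, against 60.2 and 716 bp for the 59 others in the clusters. H3K4ox peaks that met RUVBL2 had a median score of 235.6 in replicate 1 and 228.9 in replicate 2, against 68.1 and 69.3 for those that did not. In the flanks the same medians were 129.6 and 140.1 with RUVBL2 and 70.7 and 69.4 without. Peaks without a partner therefore looked alike in clusters and flanks, and the higher scores of the clusters were on the side of the peaks with one. A score is not independent of width or of overlap, so these medians are given as a description.

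**Figure D5:**
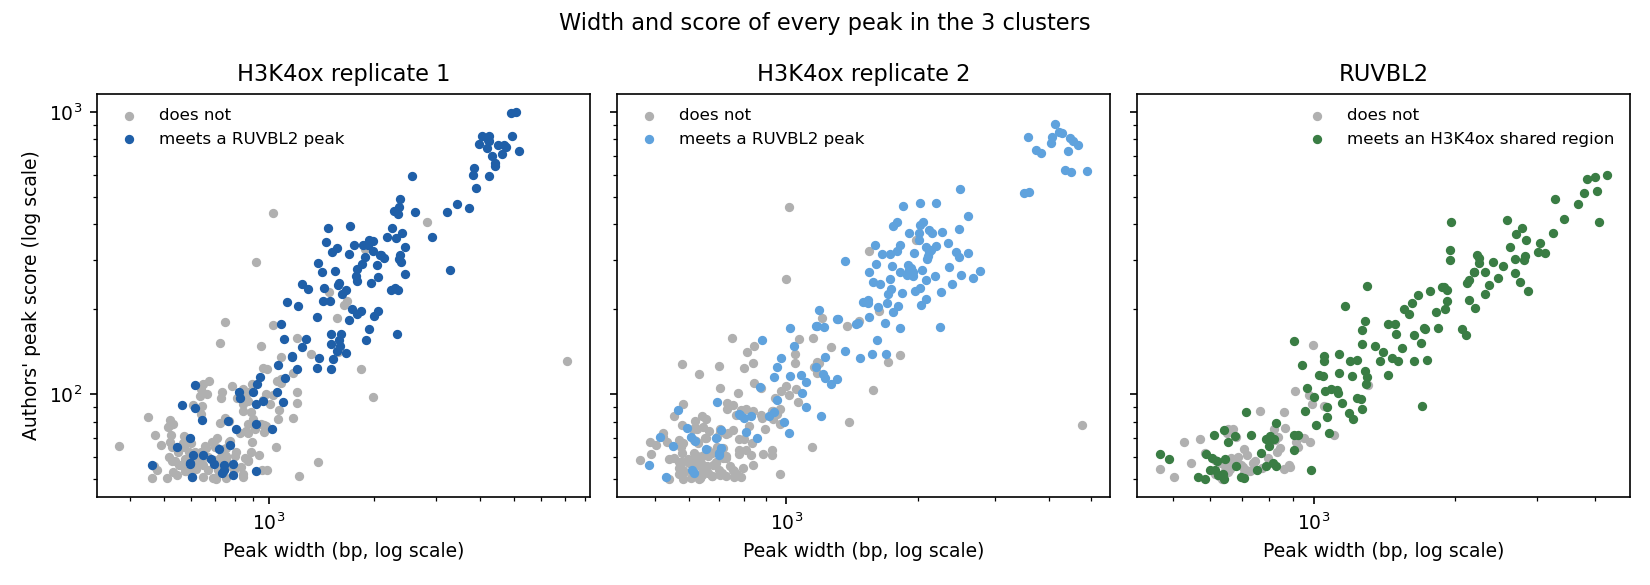
Width (bp) against score, both on log axes, for every cluster peak of the 2 H3K4ox libraries and of RUVBL2, coloured by whether it meets RUVBL2 (for the H3K4ox panels) or an H3K4ox shared region (for the RUVBL2 panel). Peaks with a partner fill the wide, high-scoring end, with median H3K4ox scores of 235.6 and 228.9 against 68.1 and 69.3 without.

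The 2 H3K4ox replicates met each other in 215 of 302 peaks of replicate 1 (71.2%) and in 229 of 312 of replicate 2 (73.4%), against 64.6% and 68.3% in the flanks and 67.8% and 70.2% over the genome. The difference was 6.59 points (0.33 to 12.5) in replicate 1 and 5.13 points (-0.96 to 10.9) in replicate 2, so only 1 of the 2 exceeded counting error. On the short arm 67.7% and 67.4% of the peaks were shared, against 68.2% and 72.6% in the flanks, while on the long arm the shares were 76.0% and 84.4% against 65.4% and 68.4%, and on chromosome 1 71.0% and 70.8% against 54.0% and 56.1%. Both chromosome 1 differences exceeded counting error.

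H2A.Z stood further from the other lists. Of its 68 peaks in the clusters, 32 (47.1%) lay in H3K4ox shared regions, against 36.9% in the flanks and 45.2% over the genome, a difference of 10.2 points (-5.46 to 25.2). RUVBL2 was met by 26 (38.2%), against 33.3% in the flanks and 33.4% over the genome, a difference of 4.90 points (-10.1 to 19.9). Neither partner nor any H3K4ox peak was met by 20 (29.4%), against 32.1% in the flanks and 31.5% over the genome. None of these 3 shares differed from the flanks beyond counting error, and with 68 peaks the intervals span more than 25 points. The share without any partner was 40.7% on chromosome 1 and 18.5% on the short arm, each of 27 peaks, and 28.6% of 14 on the long arm. In the flanks it was 34.8%, 27.3% and 35.7% in the same order. No cluster differed from its flanks beyond counting error.

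Over the 3 clusters a larger share of H3K4ox shared regions and of RUVBL2 peaks met H2A.Z than in the flanks, near the share of the genome for RUVBL2. Of the 206 H3K4ox shared regions 29 (14.1%) met H2A.Z, against 6.39% in the flanks and 10.3% over the genome, a difference of 7.69 points (2.87 to 13.4). Of RUVBL2 peaks 25 (12.2%) did, against 7.0% in the flanks and 11.8% over the genome, a difference of 5.19 points (0.43 to 10.8). By cluster only the short-arm differences exceeded counting error, with 17.2% of shared regions against 4.45% in the flanks and 16.9% of RUVBL2 peaks against 6.43%. On the long arm 10.96% of shared regions met H2A.Z against 10% in the flanks and 8.45% of RUVBL2 peaks against 8.72%, and on chromosome 1 the pairs were 13.0% against 8.43% and 10.5% against 5.32%. Of the 206 shared regions, 21 met both RUVBL2 and H2A.Z, 103 met RUVBL2 only, 8 met H2A.Z only and 74 met neither. In the flanks these counts were 19, 181, 12 and 273 of 485 in the same order. Genome shares of these classes were not taken, so nothing further is read from them.

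All 3 marks met at 21 H2A.Z peaks (30.9%), against 21.4% in the flanks and 25.7% over the genome, a difference of 9.45 points (-4.43 to 23.4) that was within counting error. Of the 21, 11 were on the short arm and 5 in each other cluster, and they lay in 20 separate shared regions. Scores at these sites were set against the median of their own list. Those of H2A.Z ran from 50.87 to 104.19 with a median of 57.48, below the list median of 66.67. Those of RUVBL2 ran from 51.64 to 596.4 with a median of 161.94, above the list median of 73.41. The best mean rank over the lists was at chr11:5737034-5738225, with H2A.Z at 104.19, RUVBL2 at 309.4 and H3K4ox at 332.59 and 409.37. On chromosome 1, 2 H2A.Z peaks at chr1:248233508-248234275 and chr1:248235553-248236258 (scores 63.8 and 75.35) lay within 1 RUVBL2 peak, chr1:248232860-248236858, of score 586.96, and within 1 shared region with H3K4ox at 793.78 and 733.2. At chr11:55283154-55283776 a weak H2A.Z peak of 51.71 stood at the left edge of the highest RUVBL2 peak of the clusters, chr11:55283228-55287476, with a score of 596.4.

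The highest-scoring peaks were described by what they met. The 3 best peaks of each list in each cluster made 27 for H3K4ox and RUVBL2 together. All 27 met both H3K4ox replicates and RUVBL2 (a peak of a list counts as meeting its own), 25 were 3 kb or wider, and 8 met H2A.Z. The 27 are not separate sites, because lists share places, such as both H3K4ox lists and RUVBL2 at chr1:247852112-247856766. For width and for H2A.Z no genome share at such scores was taken, so nothing is read from those counts. Over the genome, of peaks scored at or above the lowest of those named, 77.4% of H3K4ox replicate 1 and 72.8% of replicate 2 met RUVBL2, and 97.7% of RUVBL2 met an H3K4ox shared region. Among the 9 leading peaks of the H2A.Z list, only chr11:5737034-5738225 met RUVBL2, where 34.1% of H2A.Z peaks scored at or above the lowest of these did over the genome. With 9 peaks no difference is read from this. The best of all, chr11:6256195-6257566 with a score of 374.87, met no other list, and it lay near the right edge of the short-arm cluster. The next, chr11:5640532-5642139 at 348.62, met both H3K4ox replicates. On chromosome 1 the best was chr1:248070454-248071426 at 175.42, which also met both H3K4ox replicates and no RUVBL2. Over all 68 H2A.Z peaks the median score was 56.3 for the 26 that met RUVBL2 and 69.3 for the 42 that did not, and the medians in the flanks were 57.3 and 68.3.

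Peaks were spread unevenly along the clusters. In 49 stretches of 100 kb, the 2 H3K4ox replicates were absent from 2 each, RUVBL2 from 5 and H2A.Z from 14. No stretch lacked all 4 lists, and 32 held all 4. The fullest lay on the short arm at chr11:5600001-5700000, with 20 and 16 H3K4ox peaks, 3 of H2A.Z and 12 of RUVBL2. The densest for H2A.Z was chr1:248200001-248300000, with 7 peaks. Of these, 5 lay in H3K4ox shared regions and 5 met RUVBL2, where over the genome 45.2% and 33.4% of H2A.Z peaks did. The 7 are not separate sites, because 3 of them lay in 1 shared region, so nothing is read from these counts. Across the 49 stretches the Spearman correlation of peak numbers was 0.74 between the H3K4ox replicates, 0.70 and 0.50 between H3K4ox and RUVBL2, 0.47 and 0.37 between H3K4ox and H2A.Z, and 0.25 between H2A.Z and RUVBL2. Neighbouring stretches and the sequence that can be mapped are common to all lists, so these are descriptions without a p.

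The median distance from one H3K4ox peak to the next was 9.75 kb in replicate 1 and 10.2 kb in replicate 2, against 6.08 and 6.32 kb in the flanks. For RUVBL2 it was 12.3 kb against 9.57 kb, and for H2A.Z 47.6 kb against 52.9 kb. The longest stretch without a peak of any list was 68.2 kb on the short arm (chr11:5751974-5820160), 64.7 kb on the long arm (chr11:56089217-56153887) and 124.6 kb on chromosome 1 (chr1:248728352-248852912). Stretches of 40 kb or more without any peak made up 12.2% of the short-arm cluster, 16.9% of the long-arm cluster and 24.5% of the chromosome 1 cluster. In the left and right flanks the shares were 5.87% and 0% on the short arm and 22.4% and 10.4% on the long arm. On chromosome 1 they were 9.25% and 44.8%, and the short right flank there held a stretch of 151.6 kb, longer than any in the clusters.

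In bases, the contrast was smaller than in peak number. H3K4ox peaks covered 8.47% ± 0.20 of the clusters and 9.44% ± 0.50 of the flanks (SD, n = 2 each). RUVBL2 peaks covered 5.74% of the clusters and 5.26% of the flanks, and H2A.Z peaks 1.40% and 0.837%. For RUVBL2 the order of clusters and flanks was thus the reverse of that by number of peaks. Among peaks scored above the median of their list, the mean log2 density ratio of H3K4ox was -0.26. The intervals of the replicates did not both exclude 0.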

How the data were processed

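Chromatin immunoprecipitation was measured in 4 libraries. The deposited lists give each peak's position and the authors' score, per the file headers and the peak names written by MACS (version and settings: not given in the sources used here). Bowtie, TopHat and the build hg19 are named, without roles, in the submitters' processing notes. Each list was called per library, scores start at 50, and multilocus, a word in all 4 header lines, is not explained there. Read depth is unknown, so peak numbers limit the precision, and the labels do not say whether the H3K4ox replicates were separate cultures.

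Starts were converted to count from 1. Usable length left out stretches of 1 Mb or more without a peak in any list. Intervals are exact conditional binomial, Poisson, Clopper-Pearson or Newcombe at 95%. A difference was called when its interval excluded no difference, in both replicates for H3K4ox. The calculation was tested on simulated data. Python 3.11.15, numpy 2.4.6, pandas 2.3.3, scipy 1.17.1 and matplotlib 3.10.9 were used. Sites named are the 3 best-scoring peaks per list and cluster, the widest peak per list, the best sites where all marks meet and the longest peak-free stretches, of which a selection is printed. The wide sites were added to these. The members and lists were chosen with earlier results of these data known, and the width classes after the widths were seen. No hg19 annotation was used here, so sites are not assigned to genes, and no sequence is printed. Alternatives were other flank widths and sides, left-out clusters, replicates and sequence, other overlap rules, score limits and bases in place of peaks; using only flanks of full 2 Mb, and all alternatives for width classes, were chosen after seeing the data.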

Additional observations from a re-analysis of the deposited data

Results flagged for a closer look

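At 2 clusters and over the 3 together, the H2A.Z ratio of clusters to flanks was above 1 and that of both H3K4ox replicates below it, though not all were separated from 1. On the log2 scale H2A.Z was 0.71 (-0.08 to 1.49) on the short arm of chromosome 11, 1.08 (0.22 to 1.95) on chromosome 1 and 0.51 (0.03 to 0.99) over all 3, and the last call was lost under 6 of 13 alternatives. H3K4ox gave -0.65 ± 0.13, -0.33 ± 0.09 and -0.51 ± 0.09 (SD, n = 2) in the same order, and on chromosome 1 both replicates' intervals included 0 (-0.82 to 0.02 and -0.68 to 0.15). RUVBL2 on chromosome 1 had a log2 ratio of 0.13 (-0.38 to 0.62), opposite in sign to both H3K4ox replicates but not separated from 0. These differences between antibodies rest on 1 library of H2A.Z and 1 of RUVBL2, and over libraries they were not tested. The number of H2A.Z peaks per H3K4ox peak of replicate 1 differed between clusters and flanks by more than counting error (ratio 2.12, 1.47 to 3.04).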

How the results depend on the processing

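Over 179 alternatives of 16 results, 138 kept the direction and the call, 23 lost the call, 7 gained it, 2 values by bases moved beyond the spread and 9 others changed sign; with 1 of the 2 by bases, 10 changed sign, all of results that were not called. The cause was not tested. The H3K4ox log2 density ratio stayed negative in all 15 (-0.73 to -0.16). The ratios of H3K4ox and RUVBL2 peaks under 1 kb kept their calls in the 9 alternatives run for each. So did the difference in the share of H3K4ox peaks of 3 kb or more and that in the share of shared regions meeting RUVBL2. These 9 only changed flanks or left out clusters or sequence. Other overlap rules and score limits were not run for these results. Log2 density ratios and, for shares, points are given. With 1 Mb flanks H2A.Z density was 0.36, RUVBL2 -0.48, replicate agreement 7.45, H2A.Z in H3K4ox -0.94 and narrow H2A.Z 0.64. With 4 Mb flanks H2A.Z was 0.041, RUVBL2 -0.30 and narrow H2A.Z 0.20. With left flanks RUVBL2 was -0.30 and the above-median share of H2A.Z -24.6. With right flanks H2A.Z was 0.10, narrow H2A.Z 0.11 and above-median shares 7.63 (H3K4ox), 0.42 (H2A.Z) and 9.48 (RUVBL2). Without the short-arm cluster H2A.Z was 0.36, narrow H2A.Z 0.67, agreement 14.98, H2A.Z with RUVBL2 -1.63 and H3K4ox of 1 to 3 kb with RUVBL2 13.6. Without the long-arm cluster the last was 18.3 and the above-median share of H3K4ox 6.10. Without the chromosome 1 cluster H2A.Z was 0.23, narrow H2A.Z 0.18, RUVBL2 -0.31 and above-median shares 5.83 (H3K4ox) and 7.48 (RUVBL2). Without sequence within 1 Mb of peak-free stretches or ends these shares were 6.13 and 8.29. Over full lengths H3K4ox was -0.25 and RUVBL2 0.063. Among peaks above the list median H3K4ox was -0.26, H2A.Z 0.25, RUVBL2 0.14 and H2A.Z with RUVBL2 -0.19. By bases H3K4ox was -0.16 and RUVBL2 0.13. At 200 bp centres RUVBL2 in H3K4ox was 5.09, H2A.Z in H3K4ox -6.09 and H2A.Z with RUVBL2 -2.24. Above the upper quartile the H2A.Z share was 2.66. Without H3K4ox replicate 1 or 2 its ratio was -0.45 or -0.57. No paired analysis was possible because the groups that share replicate numbers, the RNA-seq groups, have no table analysed here. Read depth, which is unknown, and the small number of H2A.Z peaks limit the rest.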
